A study of Mus musculus with 10 samples.

Results

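The genes described here are 35 enzymes, transporters and regulators of fatty acid oxidation, peroxisomes and ketone body metabolism, given as a list of names and looked up by symbol among the 43629 genes of a kidney count table. All 35 were in the table, and 33 had enough reads to be tested. The samples were whole kidneys of male UM-HET3 mice, animals of mixed inbred ancestry that each differ in genotype, so that the spread between kidneys includes genetic differences. Control mice (n = 6), littermates of the treated animals, ate the Purina 5LG6 diet. Rilmenidine mice (n = 4) ate it with 10 ppm of rilmenidine, an imidazoline receptor agonist used against hypertension. Which animals shared a litter is not given in the sources used here, and the main test treated all kidneys as independent. Feeding began at 3 months of age and lasted 1 month, and kidneys were taken at 4 months, with 1 library of polyadenylated RNA per animal.

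Fatty acids are activated to acyl-CoA esters, carried into mitochondria on carnitine, and shortened there by a repeating cycle of dehydrogenation, hydration, a second dehydrogenation and thiolysis. Peroxisomes shorten very long and branched chains first, with hydrogen peroxide as a by-product, and in some tissues the acetyl-CoA formed is turned into ketone bodies, which other tissues burn. The proximal tubule of the kidney makes little ATP by glycolysis and relies on this pathway. The nuclear receptor PPARα, bound to DNA with RXR at paired half-sites, drives many of its genes.

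The starts of a few member genes are shown, none of which had an adjusted p under 0.05 in edgeR's quasi-likelihood test. Eci1 is the single tested member whose kidneys separated completely by diet. Acadm follows it in unadjusted p among members higher with rilmenidine. Hadhb starts 86 bases from Hadha on the opposite strand, so that its window bears on both. Abcd3 is the 1 member of 33 lower with rilmenidine at an unadjusted p under 0.05, beside 6.13% of all genes. Each window is RefSeq sequence of GRCm38.p6, 250 bases before to 50 after the RefSeq start, 5′ to 3′ on the strand of the gene. For Eci1 and Acadm this start differs from that of the gene span given further below. Capitals mark 3 motifs found on either strand: the GC box GGGCGG, extended half-sites of nuclear receptors with the letters AAGGTCA, and the CCAAT box.
Eci1, chr17:24426433-24426732, plus strand: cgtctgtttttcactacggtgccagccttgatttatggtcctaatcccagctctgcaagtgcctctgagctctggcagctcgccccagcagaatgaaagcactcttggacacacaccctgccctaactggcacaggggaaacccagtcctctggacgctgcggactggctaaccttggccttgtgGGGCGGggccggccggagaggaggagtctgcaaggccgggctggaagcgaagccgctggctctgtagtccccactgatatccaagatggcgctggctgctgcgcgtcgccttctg
Acadm, chr3:153944594-153944893, minus strand: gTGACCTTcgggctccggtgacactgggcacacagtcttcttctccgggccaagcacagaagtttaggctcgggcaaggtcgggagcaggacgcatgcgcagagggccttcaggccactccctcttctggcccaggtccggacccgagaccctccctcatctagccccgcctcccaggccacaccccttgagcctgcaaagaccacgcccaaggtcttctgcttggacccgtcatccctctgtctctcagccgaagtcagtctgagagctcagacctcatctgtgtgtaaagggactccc
Hadhb, chr5:30155003-30155302, plus strand: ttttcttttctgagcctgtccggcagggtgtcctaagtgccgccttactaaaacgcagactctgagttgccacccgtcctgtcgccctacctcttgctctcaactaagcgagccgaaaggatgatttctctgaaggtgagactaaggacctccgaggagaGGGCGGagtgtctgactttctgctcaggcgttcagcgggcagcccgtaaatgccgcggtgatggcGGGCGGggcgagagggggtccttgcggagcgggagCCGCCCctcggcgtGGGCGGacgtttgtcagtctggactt
Abcd3, chr3:121815253-121815552, minus strand: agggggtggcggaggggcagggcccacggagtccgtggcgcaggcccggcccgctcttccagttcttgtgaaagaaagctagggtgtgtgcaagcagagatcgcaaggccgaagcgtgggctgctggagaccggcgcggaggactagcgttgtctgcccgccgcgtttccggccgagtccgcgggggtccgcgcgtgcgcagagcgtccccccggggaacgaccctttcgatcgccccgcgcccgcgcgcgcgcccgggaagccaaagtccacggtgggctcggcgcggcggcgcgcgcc

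Eci1 holds 1 GC box, Hadhb holds 4, Acadm holds an extended half-site near the upstream edge of its window, and Abcd3, for which RefSeq gives a further start, holds none of the 3 motifs. Windows were found for 30 of the 35 genes. The full PPARα-type direct repeat, 2 copies of AGGTCA in the same orientation with 1 base of any kind between them, searched on both strands, was in 0 of the 30 windows, and in 0.0481% of the 27025 gene windows of the reference. With up to 2 mismatches allowed it was in 2, those of Echs1 and Etfa, or 6.67%, beside 3.78% of the 7850 tested genes with a window. The extended half-site AAGGTCA was also in 2, Acadm and Dao, beside 3.76% of tested genes. GC boxes were in 22 windows (73.3%, beside 70.3% of tested genes) and CCAAT boxes in 13 (43.3%, beside 42.2%). These are matches of letters in a short window and say nothing of whether a factor binds.

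Marker levels were those of kidney. Slc34a1, the proximal tubule phosphate transporter, stood at a mean of 6002 ± 779 CPM (read counts scaled to a common library size; SD, n = 6) in control and 5833 ± 728 (n = 4) in rilmenidine kidneys, while Alb, the main liver product, stood at 4.45 ± 4.03 and 5.86 ± 1.57. The extraction text of the labels names liver, which these levels do not resemble. Libraries held 863605 to 2559118 counted reads in control and 1813465 to 3232063 in rilmenidine kidneys. The nuclear RNA Malat1 stood at 1482, 398, 1182, 1466, 2100 and 284 CPM in the control kidneys and at 339, 351, 306 and 393 in the rilmenidine kidneys, so that 4 of the 6 controls lay above every other kidney. Reads on olfactory and vomeronasal receptor genes, which kidney uses little, stood below 10 CPM in control 6 and rilmenidine 3 and 4. In the other 7 libraries they stood above it. Control 6 and rilmenidine 3 and 4 were also the deepest libraries, at 2559118, 3042036 and 3232063 counted reads, with the others at 1924490 or fewer. A cut by receptor gene reads was thus also a cut by depth, and the 2 cannot be told apart.

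Most members had higher values with rilmenidine, and no single one passed the adjusted threshold. Of the 33 tested members, 27 (81.8%) had a log2 fold change above 0 with rilmenidine, with a median of 0.21, whereas 50.3% of the 10055 genes tested lay above 0, with a median of 0.00. At an unadjusted p under 0.05 there were 6 members higher (Eci1, Acadm, Decr1, Acadl, Cpt2 and Echs1) and 1 lower (Abcd3), beside backgrounds of 4.43% of all genes higher and 6.13% lower. With p-values of the quasi-likelihood test in edgeR, adjusted after Benjamini and Hochberg across every gene tested, 0 members and 0 genes in all (a background of 0%) had an adjusted p under 0.05, and the smallest adjusted p of a member was 0.232. DESeq2 called 60 genes and edgeR's likelihood ratio test 44, none of them members. The number of members higher at the unadjusted threshold was 11 without control 6 and 2 without rilmenidine 3, where 6.44% and 3.03% of all genes were higher. In whole kidney, fewer cells of a type and less RNA per cell cannot be told apart.

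Several member values differed with Malat1, and others, such as Acadm, Abcd3 and Pex11a, changed little when it was taken into account. Controls 2 and 6, the controls lowest in it, had median member deviations from the control mean of 0.11 and 0.17 on the log2 scale, the other controls lay between -0.28 and 0.10, and the rilmenidine kidneys stood at 0.24, 0.02, 0.31 and 0.30, so that the groups overlapped. With the log2 level of Malat1 as a covariate 20 of the 33 members were above 0, with a median of 0.07, and 1 was higher at an unadjusted p under 0.05, beside 1.48% of all genes, a share that had also dropped from 4.43%. With library size as a covariate 24 were above 0 (median 0.13), with the early proximal tubule markers 27 (median 0.24), and within the 7 libraries high in receptor gene reads 25 (median 0.21). Since all 4 rilmenidine kidneys were low in Malat1, the covariate and the diet are partly confounded. Shorter transcripts were also higher with rilmenidine in general: 63.3% of tested genes shorter than the median of 3434 bases were above 0, against 37.4% of longer ones. Among members, 20 of 22 shorter and 7 of 11 longer genes were above 0, with medians of 0.23 and 0.19, beside 0.084 and -0.079 for all genes of those lengths.

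**Figure D1:**
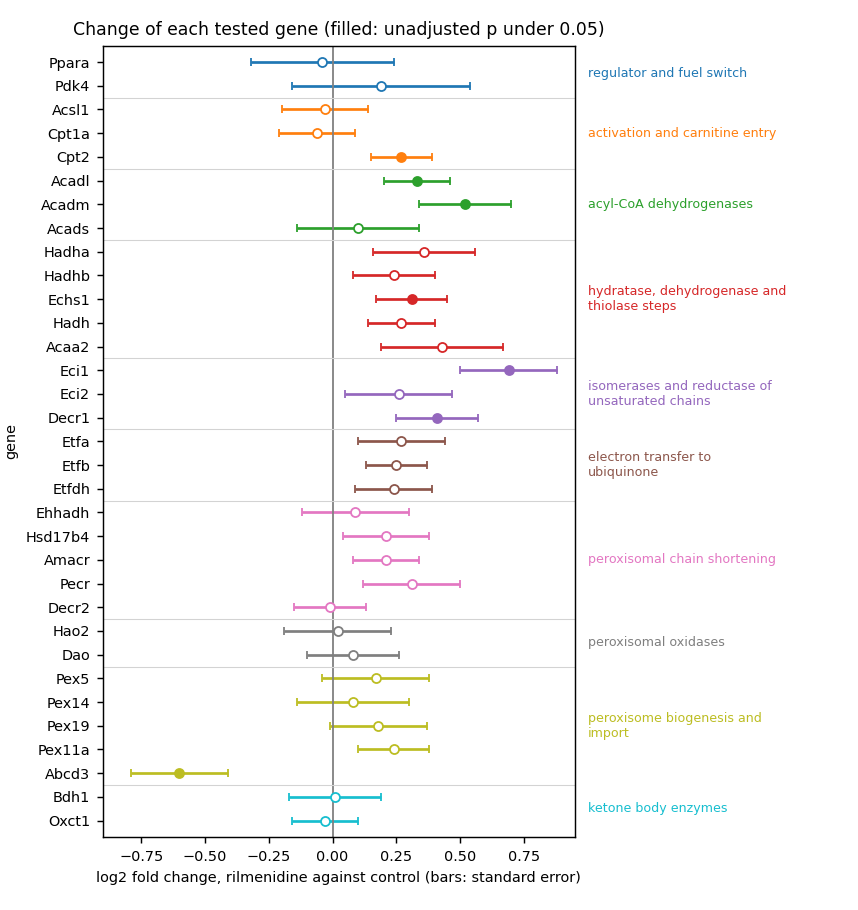
Log2 fold change of each tested member with rilmenidine against control (horizontal axis; bars, standard error of the edgeR fit over 6 control and 4 rilmenidine kidneys), grouped by role; filled points have an unadjusted p under 0.05. The 17 mitochondrial oxidation genes lie mostly right of 0, with a median of 0.27, and Abcd3 stands alone at -0.60.

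The highest medians were those of mitochondrial enzymes. Of the 17 tested genes of the 5 mitochondrial role groups (activation and carnitine entry, acyl-CoA dehydrogenases, hydration and thiolysis, isomerases, electron transfer), 15 had a log2 fold change above 0 and the median was 0.27. Of the 12 tested peroxisomal genes, 10 were above 0 and the median was 0.13. The difference between mitochondrial and peroxisomal genes was not tested.

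The regulators did not stand apart. Ppara, the receptor itself, ranged from 16.3 to 24.1 CPM in control kidneys (median 19.1) and stood at 23.2, 13.6, 9.45 and 29.7 CPM in the 4 rilmenidine kidneys. The rilmenidine kidneys lay on both sides of the control range, 2 below it and 1 above, and the log2 fold change was -0.04 ± 0.28 (SE). Pdk4, the kinase that inactivates the pyruvate dehydrogenase complex and so spares pyruvate, ranged from 3.47 to 12.3 CPM in control (median 6.68) and stood at 5.80, 9.77, 9.80 and 5.62 with rilmenidine, within the control range, at a log2 fold change of 0.19 ± 0.35. At these low counts a change of that size in Pdk4 was not detectable.

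Activation and carnitine entry gave 1 of 3 genes above 0. Cpt1a, the carnitine palmitoyltransferase of the outer membrane and the controlled step of entry, ranged from 219 to 361 CPM in control (median 311) and stood at 306, 241, 267 and 301 with rilmenidine. All 4 lay inside the control range, and the log2 fold change was -0.06 ± 0.15 with an adjusted p of 0.936 in edgeR. Acsl1, which makes the acyl-CoA, was at -0.03 ± 0.17. Cpt2, which returns the acyl group to CoA inside the mitochondrion, ranged from 107 to 138 CPM in control (median 121) and stood at 129, 150, 139 and 163 with rilmenidine. Of its 4 rilmenidine kidneys 3 lay above the highest control, with a log2 fold change of 0.27 ± 0.12 (edgeR unadjusted p = 0.0385, adjusted p = 0.442).

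The acyl-CoA dehydrogenases, which open the cycle for chains of different length, were above 0 in all 3 tested genes, with a median of 0.33. Acadm, the medium-chain enzyme (ENSMUSG00000062908, chr3:153922357-153944632, minus strand), ranged from 254 to 349 CPM in control (median 274) and stood at 324, 291, 578 and 466 with rilmenidine. Rilmenidine 3 and 4 were above every control and rilmenidine 1 and 2 inside the control range, and the log2 fold change was 0.52 ± 0.18 (edgeR unadjusted p = 0.0089, adjusted p = 0.313). The markers of the straight proximal tubule, given further below, were each higher in rilmenidine 3 and 4 than in rilmenidine 1 and 2. Rilmenidine 3 and 4 are also the rilmenidine libraries low in receptor gene reads, and the deepest of the series. Within the 7 libraries high in those reads (5 control, 2 rilmenidine), which are also the shallower ones, the value was 0.05. The pooled value for Acadm thus rested on rilmenidine 3 and 4. Acadl, the long-chain enzyme of rodents, showed the same split, with rilmenidine kidneys at 287, 304, 403 and 392 CPM against 246 to 305 in control, a log2 fold change of 0.33 ± 0.13 in the whole set and 0.13 within the 7 libraries. Acads, the short-chain enzyme, was at 0.10 ± 0.24, and turned to -0.33 within the 7 libraries.

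**Figure D2:**
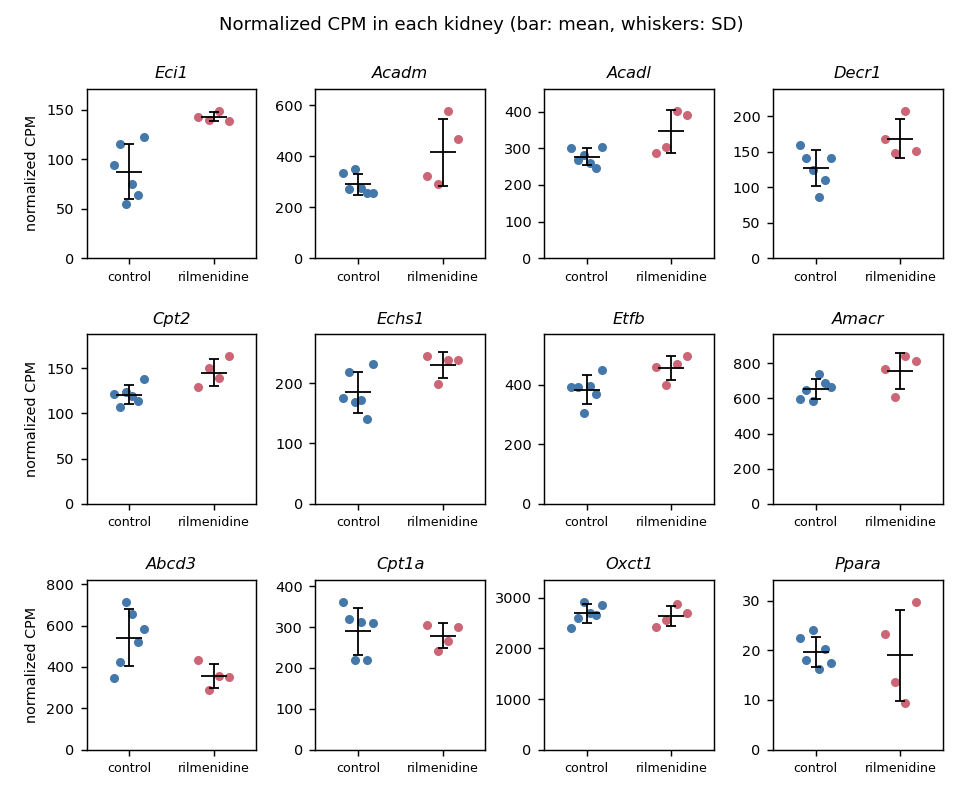
Normalized CPM (vertical axes, each from 0) of 12 members in the 6 control and 4 rilmenidine kidneys; points are kidneys, bars the mean and whiskers the SD. Eci1 is the panel whose groups do not overlap, with controls at 54.8 to 122 and rilmenidine kidneys at 139 to 149, while Oxct1 and Cpt1a overlap fully.

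Acadvl, the very-long-chain dehydrogenase, could not be assessed. It held 0 to 4 raw counts per library, 10 in all, and 4 libraries were at 0. In GENCODE M21, 94.4% of the last 500 bases of its transcripts are also covered by exons of Dvl2 on the opposite strand, which itself held 2 to 13 counts. The libraries were made by a protocol that tags the 3′ end, and whether counting used the strand is not given in the sources used here, so low counts of Acadvl do not show that the enzyme is missing.

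The hydratase, dehydrogenase and thiolase steps were above 0 in all 5 genes, between 0.24 and 0.43. Echs1, the short-chain enoyl-CoA hydratase, ranged from 141 to 232 CPM in control (median 174) and stood at 244, 199, 238 and 239 with rilmenidine. Of the 4 rilmenidine kidneys 3 lay above the highest control and rilmenidine 2 lay among the controls, with a log2 fold change of 0.31 ± 0.14 (edgeR unadjusted p = 0.042, adjusted p = 0.452). The value was 0.03 with Malat1 as a covariate and 0.16 with library size, neither past the unadjusted threshold. Hadha and Hadhb, the α and β chains of the trifunctional protein that handles long chains, share a divergent start and gave 0.36 ± 0.20 and 0.24 ± 0.16. Hadh, the short-chain hydroxyacyl-CoA dehydrogenase, gave 0.27 ± 0.13, and Acaa2, the mitochondrial thiolase, 0.43 ± 0.24.

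Hadha and Acaa2 did not follow the kidneys in which Acadm was high. Acaa2 stood at 144, 127, 94.5 and 76.2 CPM in rilmenidine 1 to 4 and Hadha at 179, 129, 114 and 113. Within the 7 libraries with more receptor gene reads their log2 fold changes were 0.90 and 0.66, against 0.05 for Acadm. With Malat1 as a covariate they were -0.06 and -0.01, against 0.60 for Acadm. Acadm and Acaa2 thus had their highest rilmenidine values in different kidneys.

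The isomerases and the reductase, which let unsaturated chains through the cycle, held the clearest values. Eci1, the mitochondrial enoyl-CoA isomerase (ENSMUSG00000024132, chr17:24426641-24439348, plus strand), ranged from 54.8 to 122 CPM in control (median 84.7) and stood at 143, 140, 149 and 139 with rilmenidine. Every rilmenidine kidney lay above every control, and the rilmenidine values spanned far less than the controls (143 ± 4.53 against 87.5 ± 27.6). The log2 fold change was 0.69 ± 0.19, or 1.62-fold (edgeR unadjusted p = 0.00203, adjusted p = 0.232). It was the 1 member of 33 higher without overlap, where the background was 0.796% of all genes, and 0 members were lower without overlap, where the background was 0.875%. The first count was 5 without rilmenidine 2, where the background was 2.74%, and 3 without control 6, where it was 2.23%.

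Control 2 and control 6, the controls lowest in Malat1, were also the controls highest in Eci1, at 115 and 122 CPM. With Malat1 as a covariate the log2 fold change of Eci1 was 0.31 (unadjusted p = 0.0979 in edgeR) and with library size 0.50 (0.0402). Within the 7 libraries it was 0.81. The value stayed above 0 in all 20 alternative settings, from 0.31 to 0.82, with adjusted p from 0.00337 (a filter that kept any gene with 1 count) to 1.

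Decr1, the dienoyl-CoA reductase, ranged from 86.9 to 159 CPM in control (median 132) and stood at 168, 148, 208 and 151 with rilmenidine. Rilmenidine 1 and 3 lay above all controls and the other two inside the control range, with a log2 fold change of 0.41 ± 0.16 (edgeR unadjusted p = 0.0199, adjusted p = 0.368). Eci2, an isomerase found in both mitochondria and peroxisomes, gave 0.26 ± 0.21, with full overlap.

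Electrons from the acyl-CoA dehydrogenases pass through the flavoprotein ETF to ubiquinone. Its 2 subunits and the dehydrogenase that accepts from it gave closely similar values, 0.27 ± 0.17 for Etfa, 0.25 ± 0.12 for Etfb and 0.24 ± 0.15 for Etfdh. Etfb ranged from 304 to 450 CPM in control (median 391) and stood at 460, 397, 470 and 494 with rilmenidine, 3 of them above all controls (edgeR unadjusted p = 0.064, adjusted p = 0.501). An exon of Gm45233 on the same strand covers 53.8% of the last 500 bases of Etfb, so its count is uncertain.

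**Figure D3:**
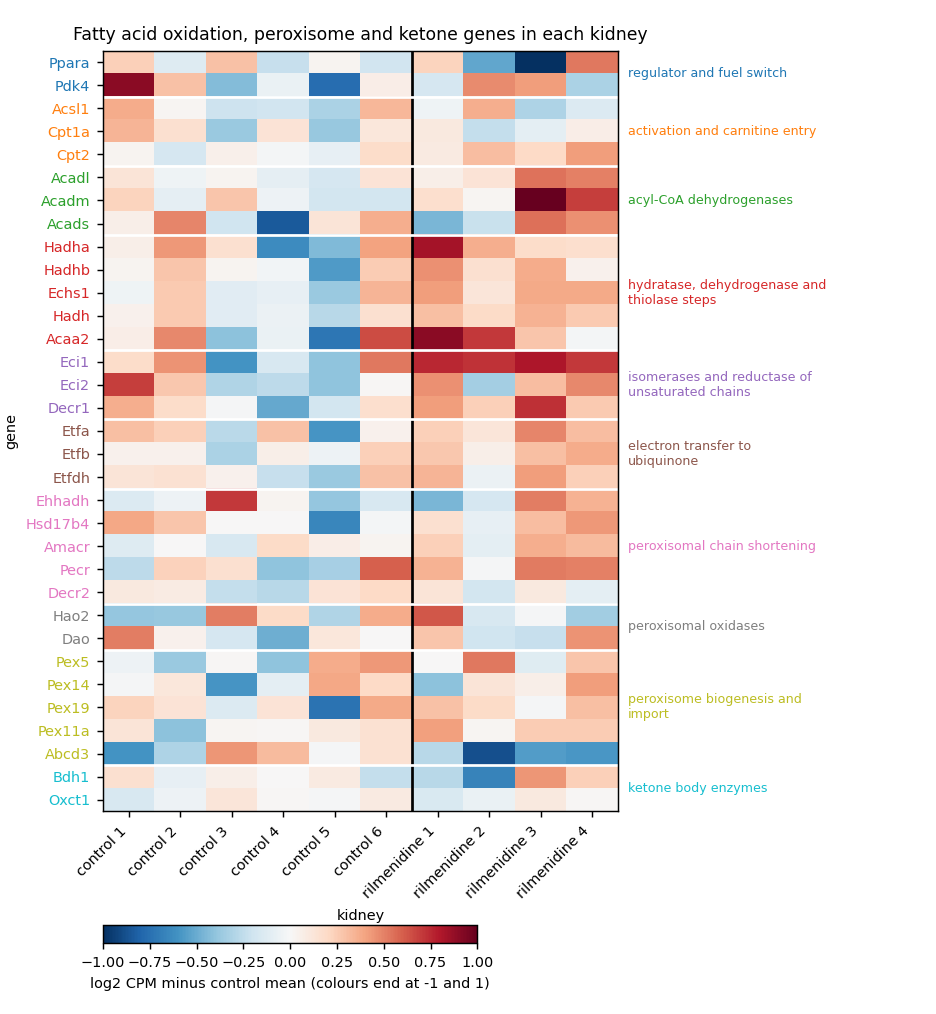
Deviation of each tested member (rows, by role) from its control mean on the log2 CPM scale in each kidney (columns; colours end at -1 and 1). Eci1 is above its control mean in all 4 rilmenidine kidneys and Abcd3 below it; control 5 is low, and controls 2 and 6 high, across many mitochondrial rows.

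Peroxisomal chain shortening was closer to control. Amacr, the racemase that prepares branched chains, ranged from 585 to 741 CPM in control (median 658) and stood at 770, 610, 839 and 815 with rilmenidine. Of these, 3 lay above all controls and rilmenidine 2 among them, with a log2 fold change of 0.21 ± 0.13 (edgeR unadjusted p = 0.113, adjusted p = 0.583). Ehhadh, the bifunctional enzyme of straight chains and a classical PPARα target, gave 0.09 ± 0.21, and Hsd17b4, its counterpart for branched chains, 0.21 ± 0.17. Pecr, a peroxisomal enoyl-CoA reductase, gave 0.31 ± 0.19, and Decr2, the peroxisomal dienoyl-CoA reductase, -0.01 ± 0.14.

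Acaa1b, a peroxisomal thiolase, held 0 to 7 raw counts per library and was not tested. Exons of Dlec1 on the opposite strand cover 44.8% of its last 500 bases, and its near-identical paralog Acaa1a, at a log2 fold change of 0.07 ± 0.19, may take reads from it.

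The oxidases had fold changes near 0. Dao, which oxidises D-amino acids, ranged from 105 to 210 CPM in control (median 150) and stood at 179, 128, 126 and 203 with rilmenidine, all inside the control range, at 0.08 ± 0.18. Hao2, a hydroxyacid oxidase, was at 0.02 ± 0.21.

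Abcd3 lay on the other side of 0 from most peroxisomal genes. It encodes the membrane transporter that brings branched and long dicarboxylic acyl groups into peroxisomes (ENSMUSG00000028127, chr3:121758774-121815302, minus strand). Its level ranged from 346 to 713 CPM in control (median 554) and stood at 432, 286, 356 and 351 with rilmenidine. Rilmenidine 2 was below every control, rilmenidine 3 and 4 lay above control 1 alone, and rilmenidine 1 lay above control 1 and control 2. The log2 fold change was -0.60 ± 0.19, or 0.658-fold (edgeR unadjusted p = 0.00485, adjusted p = 0.285). It moved little between settings, from -0.71 to -0.51, being -0.58 with Malat1 as a covariate and -0.57 within the 7 libraries. Its adjusted p ran from 0.0229, in edgeR with the filter that kept any gene with 1 count, to 1. The annotation places other genes on the same strand within its span.

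The other genes of peroxisome biogenesis were above 0 by less than 2 of their standard errors: Pex5 (the import receptor) at 0.17 ± 0.21, Pex14 (its docking partner) at 0.08 ± 0.22, Pex19 (the chaperone of membrane proteins) at 0.18 ± 0.19 and Pex11a (which promotes peroxisome division) at 0.24 ± 0.14. None of these 4 was below 0.

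The ketone enzymes also had fold changes near 0. Oxct1, which activates acetoacetate for oxidation in tissues that burn ketones, ranged from 2414 to 2915 CPM in control (median 2686) and stood at 2429, 2557, 2883 and 2711 with rilmenidine. All 4 lay inside the control range, with a log2 fold change of -0.03 ± 0.13, and Bdh1, which interconverts the 2 ketone bodies, gave 0.01 ± 0.18. Bdh1 was not steady: it was -0.51 within the 7 libraries high in receptor gene reads (edgeR unadjusted p = 0.0129, adjusted p = 0.349), and leaving out single kidneys moved it between -0.18 and 0.18.

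Other genes of the same pathways were looked up in lists written from general knowledge. Of 105 tested, 71 (67.6%) were above 0, with a median log2 fold change of 0.11, beside 50.3% of all genes. The lists below share genes, 4 of those tested being in more than 1 list, so that their counts add up to more. At an unadjusted p under 0.05 there were 10 higher and 2 lower, beside backgrounds of 4.43% of all genes higher and 6.13% lower. In edgeR's quasi-likelihood test 0 passed the adjusted threshold, beside 0% of all genes. Of the 105, 3 were higher without overlap, Pex7 and Vnn1 among them, beside 0.796% of all genes. Lower without overlap were 0, beside 0.875%.

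Among 27 other mitochondrial oxidation genes 20 were above 0 (median 0.11), and 1 was higher at the unadjusted threshold, beside 4.43% of all genes. This was Hsd17b10, a hydroxyacyl-CoA dehydrogenase of branched chains that is also part of mitochondrial RNase P, at 0.39 ± 0.15 (edgeR unadjusted p = 0.0181).

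Among 41 other peroxisome genes 27 were above 0 (median 0.13), and 4 were higher at the unadjusted threshold, beside 4.43% of all genes. The 4 included Pxmp4, a membrane protein, at 0.38 ± 0.14, Ech1, a dienoyl-CoA isomerase, at 0.38 ± 0.14, and Pex7, the second import receptor, at 0.33 ± 0.13. In Pex7 the groups did not overlap, with controls at 34.0 to 41.5 CPM and rilmenidine kidneys at 45.8, 46.7, 48.6 and 43.4. Its value was 0.37 with Malat1 as a covariate, whereas that of Ech1 was 0.17. Cat, the catalase that removes hydrogen peroxide, was at 0.14 ± 0.13. Of 5 other ketone genes 3 were above 0, and none was past the unadjusted threshold.

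Among 36 PPARα partners and target genes 24 were above 0, with a median of 0.10. At the unadjusted threshold 6 were higher and 2 lower, beside 4.43% and 6.13% of all genes. Vnn1, which makes pantothenic acid and cysteamine and is a known PPARα target, stood at 34.2, 56.5, 51.8 and 40.9 CPM with rilmenidine against 19.1 to 30.0 in control (median 26.8). The groups did not overlap, and the log2 fold change was 0.80 ± 0.18 (edgeR quasi-likelihood unadjusted p = 0.000319, adjusted p = 0.193). DESeq2 gave an adjusted p of 0.0319 and edgeR's likelihood ratio test 0.0226, and the value lay between 0.69 and 0.90 in every alternative run.

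Cyp4a10, a fatty acid ω-hydroxylase, stood at 130, 160, 231 and 244 CPM with rilmenidine against 59.3 to 147 in control (median 101). Rilmenidine 1 lay inside the control range and the other 3 above it, with a log2 fold change of 0.92 ± 0.21 (edgeR adjusted p = 0.211; DESeq2 adjusted p = 0.0227). It was 0.54 within the 7 libraries high in receptor gene reads, and its near-identical paralogs make the count uncertain. Angptl4, a secreted inhibitor of lipoprotein lipase, stood at 46.4, 27.2, 33.9 and 38.7 CPM against 5.81 to 43.8, at 1.00 ± 0.38. Control 1 and control 6, at 43.8 and 30.0 CPM, overlapped with the rilmenidine kidneys. The corepressors Ncor1, at -0.45 ± 0.14, and Nrip1, at -0.42 ± 0.19, were the 2 lower, and with Malat1 as a covariate they stood at -0.19 and -0.24.

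**Figure D4:**
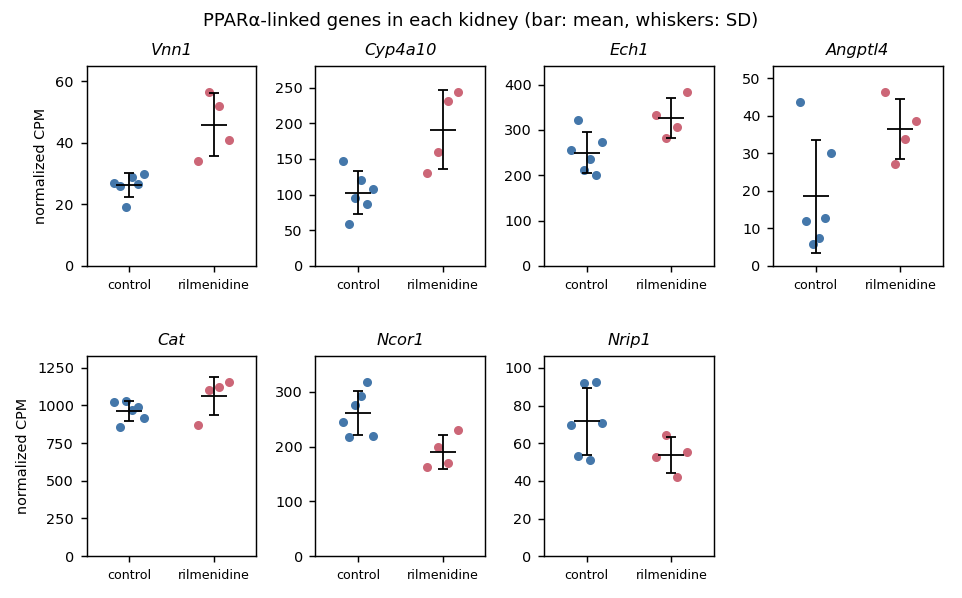
Normalized CPM (vertical axes, each from 0) of 7 genes linked to PPARα or peroxisomal oxidation in the 6 control and 4 rilmenidine kidneys; points are kidneys, bars the mean and whiskers the SD. In Vnn1 all rilmenidine kidneys lie above the controls, at 34.2 to 56.5 against 19.1 to 30.0, while the groups overlap in Cat.

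Markers of kidney cell types were measured beside these values. Markers of the early proximal tubule had 2 of 8 above 0 with a median of -0.05, and their summed level was 7949 to 9682 CPM in control and 7734 to 9128 with rilmenidine. Straight proximal tubule markers had 4 of 8 above 0, with sums of 3486 to 6141 and 3183 to 5558 CPM. Their fold changes differed, with Cyp7b1 at a log2 fold change of 1.52 and Slc22a30 at -1.09. Each of the 8, however, was higher in rilmenidine 3 and 4 than in rilmenidine 1 and 2. This split was seen only after the values were known. Cyp7b1 stood at 9.86, 51.0, 210 and 141 CPM in rilmenidine 1 to 4 and at 16.8 to 80.5 in control. Slc7a13 stood at 482, 516, 902 and 917 CPM, against 412 to 943 in control. Acadm and Acadl were also high in rilmenidine 3 and 4. Thick ascending limb markers had 6 of 6 tested above 0, with sums of 1859 to 2603 and 2191 to 3298 CPM. Umod, Egf and Ptger3 stood at 0.61, 0.42 and 0.40, but Slc12a1, Kcnj1 and Cldn10 at 0.08, 0.07 and 0.06. Distal convoluted tubule markers had 0 of 5 above 0, with sums of 1042 to 1559 and 785 to 1218 CPM. Among them 1 gene, Trpm6, was lower without overlap, beside 0.875% of all genes. Principal cell markers had 4 of 5 above 0, with sums of 143 to 190 and 201 to 230 CPM that did not overlap. As single genes, 1 of these 5, Aqp2, was higher without overlap, beside 0.796% of all genes. Tubular injury markers had 2 of 2 tested above 0, Spp1 at 0.54 and Vcam1 at 0.03, with sums of 125 to 235 and 222 to 289 CPM. Spp1, at means of 147 and 215 CPM, made up most of these sums. Havcr1, the injury marker KIM-1 of the proximal tubule, had too few reads to be tested and stood at 1.74, 11.4, 45.5 and 28.1 CPM in rilmenidine 1 to 4, against 1.17 to 11.6 in control, again highest in rilmenidine 3 and 4. Adipocyte markers had 1 of 3 tested above 0, with Lep at 0 in all libraries and sums of 69.4 to 145 and 82.9 to 151 CPM. The part of the straight and distal segments and of injury genes in the member values was not tested.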

How the data were processed

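Polyadenylated RNA libraries of 10 mouse kidneys were analysed as 6 control and 4 rilmenidine samples, grouped by the treatment in the labels. The authors deposited raw counts, whole numbers of reads per gene and kidney, made per the labels with bcl2fastq 1.8.4, Trimmomatic 0.32, STAR 2.5.2b and featureCounts 1.5 on mm10. The library protocol they cite tags 3′ ends and carries molecular identifiers; their use, the strand setting and the annotation release are not given in the sources used here. The study's supplementary methods give a larger control group than the 6 analysed here. Ensembl identifiers were paired with symbols in GENCODE M21 for 42462 of 43629 genes. No 2 libraries agreed within sampling noise (lowest chi-square per degree of freedom 3.669 over 45 pairs).

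The 10055 genes that reached 6 reads in 7 or more of the 10 libraries were tested by edgeR 4.0.16 (R 4.3.3) with RLE normalization, a quasi-likelihood F test and Benjamini-Hochberg adjustment over all genes, with a threshold of 0.05; the code was tested on simulated data. Levels are CPM with RLE-scaled library sizes, and 2 was the prior count for levels on the log2 scale. Totals of 863605 to 3232063 counts limit what low genes can show. Alternatives were TMM, filters of 1 count in any or 10 in every library, DESeq2 1.42.0, a likelihood ratio test, covariates, the replicate number as a block, 7 libraries with at least 10 CPM on receptor genes, and leaving out each kidney. Per-kidney values are given for Ppara, Pdk4, Cpt1a, the 3 members of smallest unadjusted p in each direction and the smallest in each role group. Of the other lists, genes with an unadjusted p under 0.05 are named, at most 4 per list and direction, plus Acaa1a and Cat; a few further genes of these lists are not reported here. Acadl, Hadha and Acaa2 are given by kidney outside this rule, chosen after their values were seen. The members and lists were chosen with earlier results of these data known, so no test over a list was made. A planned look at the C-terminal residues of peroxisomal proteins was not made, because protein sequences were not used here.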

Additional observations from a re-analysis of the deposited data

Results flagged for a closer look

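Of 66 groups of kidneys (33 members in 2 groups), 3 held a kidney far from the others of its group by Dixon's criterion, which flags about 1 in 20 groups by chance. Echs1 in rilmenidine 2 stood at 199 CPM, with the nearest other rilmenidine kidney at 238. Ehhadh in control 3 stood at 159 CPM, with the nearest other control at 99.5. Pex11a in control 2 stood at 44.3 CPM, with the nearest other control at 59.4.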

How the results depend on the processing

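Of 659 member values computed under the alternatives, 599 kept their direction, and 16 of the 33 members kept it in all that were run. The log2 fold changes that turned were, with Malat1 as a covariate, Acaa2 -0.06, Acads -0.19, Hadha -0.01, Hadhb -0.04, Hao2 -0.10, Pdk4 -0.05, Pecr -0.08, Pex19 -0.09 and Ppara 0.13; with library size, Acads -0.37, Acsl1 0.03, Bdh1 -0.11, Ehhadh -0.0014, Pecr -0.01, Pex14 -0.23 and Ppara 0.04; with early proximal tubule markers, Acsl1 0.03, Cpt1a 0.05, Ehhadh -0.0023 and Pex14 -0.00014; and within the 7 libraries, Acads -0.33, Acsl1 0.23, Bdh1 -0.51, Decr2 0.02, Ehhadh -0.38 and Pex14 -0.10. Leaving out single kidneys turned 11 members, whose ranges were Acads -0.07 to 0.25, Acsl1 -0.18 to 0.05, Bdh1 -0.18 to 0.18, Cpt1a -0.12 to 0.01, Dao -0.06 to 0.19, Decr2 -0.07 to 0.04, Ehhadh -0.07 to 0.27, Hao2 -0.22 to 0.14, Oxct1 -0.07 to 0.01, Pex14 -0.07 to 0.21, Ppara -0.38 to 0.20. The cause was not tested.

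Members called at the adjusted threshold numbered 2, Eci1 and Abcd3, with the loosest filter, where 241 of 27565 genes were called. Against 0.174 in the main run, the smallest adjusted p of any gene in edgeR's quasi-likelihood test was 3.3e-53 with this filter. These calls thus depended on it. The standard error of Angptl4 fell from 0.38 to 0.21 with that filter, while that of Pex7 rose from 0.13 to 0.19. Genes called in all numbered 60 with DESeq2 and 44 with the likelihood ratio test, of 10055 each. Leaving out a kidney gave 0 to 37 (33 without control 2, 37 without control 6, 6 without rilmenidine 1). Members higher at the unadjusted threshold numbered 1 with library size, 1 with Malat1, 3 within the 7 libraries and 2 to 11 with a kidney left out, beside 2.17%, 1.48%, 4.36% and 3.02% to 6.44% of all genes, and members lower 2 within the 7 libraries, beside 6.2%. Members higher without overlap numbered 5 within the 7 libraries and 1 to 5 with a kidney left out, beside 6.86% and 0.915% to 2.74% of all genes, and members lower without overlap 1 within the 7 libraries, beside 6.75%; with fewer kidneys, groups separate more often.

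With the replicate block, the log2 fold changes that turned were Bdh1 -0.08, Decr2 0.09 and Ehhadh -0.06, 26 members were above 0 with a median of 0.22, and 3 genes overall were called. Same-numbered control and rilmenidine kidneys share only a number: their deviations correlated at 0.093, 0.071, -0.093 and -0.015, and no rilmenidine kidney was most alike to the control of its own number. Depth limits the low genes, of which Pdk4 had 3.47 to 12.3 CPM.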

Other observations

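The spread among control kidneys differed between members. The SD of the log2 level over the 6 controls was 0.52 for Acaa2, 0.48 for Acads, 0.46 for Eci1 and 0.44 for Hadha, where the median of genes of like level was 0.24 to 0.25. It was 0.10 for Oxct1, 0.12 for Cpt2 and Acadl and 0.13 for Amacr, below the medians of 0.20 to 0.21 for genes of like level. Only 11 genes were of like level to Oxct1 and 73 to Amacr. In all, 23 of the 33 tested members had an SD above the median of genes within 0.25 of their mean log2 level.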
